A study of Arabidopsis thaliana with 6 samples.

Results

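The genes described here take up nitrate and ammonium, reduce nitrate to ammonium and build glutamine, glutamate and asparagine from it. They were chosen by name from knowledge of the pathway, as 38 loci out of 33617 genes in the deposited table. A locus with fewer than 60 fragments over the 6 libraries counted as unmeasured, which left 20 measured genes. Messenger RNA came from whole seedlings of Arabidopsis thaliana, 7 days old, raised without treatment at 23 °C on MS medium under long days. One group was the line cog1-2D, labelled as an activation tagging mutant, and the other was unmutated wild type, named Col-0 in the series' design text, with 3 libraries per genotype. In an activation tagging line an inserted enhancer is meant to raise the expression of a nearby gene, here COG1, which encodes a Dof-type transcription factor. The mutant is a single line, and the labels do not say whether the 3 libraries of a genotype came from separate cultures, so p-values measure the spread between these libraries.

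Nitrate enters root cells through carriers of the NPF (NRT1) and NRT2 families. In the cytosol nitrate reductase turns it into nitrite, which nitrite reductase turns into ammonium in the plastid. Glutamine synthetase and glutamate synthase then fix the ammonium into amino acids, a cycle that in green tissue also recovers the ammonium released by photorespiration. Transcription factors such as NLP7 switch on many of these genes when nitrate is present.

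The libraries held 10575945 to 11202122 fragments assigned to genes. Loci on the minus strand had almost no fragments in any library. Of the protein-coding genes, 72.0% of 13777 on the plus strand reached 60 fragments, against 1.2% of 13666 on the minus strand. COG1 (AT1G29160) lies there too and held 0, 3 and 3 fragments in cog1-2D and 0 in each wild type library, too few to check the genotype labels. Of 18 root marker genes, 10 lie on the plus strand and were tested. Of these, 1 rose (TIP4;1, 0.77 ± 0.07 on the log2 scale, SE), 4 fell, among them HKT1 (-1.48 ± 0.15) and EXPA7 (-1.01 ± 0.11), and 5 did not pass. The summed level of the 18 ran from 352 to 525 FPKM (fragments scaled for gene length and library size) in cog1-2D and from 299 to 435 FPKM in wild type. Without IRT1, an iron carrier that made up most of that sum, it ran from 130.0 to 135 FPKM in cog1-2D and from 129 to 143 FPKM in wild type. This smaller sum still holds TIP4;1, the marker that rose. TIP4;1 stood at 55.8, 57.7 and 59.2 FPKM in cog1-2D and at 36.0, 32.1 and 32.4 FPKM in wild type. Similar sums therefore do not mean that the other root markers were level, and 4 of them fell. The markers SHV2, MYB66 and SMB were at 0 in every library, but all lie on the nearly empty minus strand. Their counts tell nothing of root tissue. Of 12 leaf marker genes, 3 lie on the plus strand. Of these SBPASE fell (-0.25 ± 0.07 on the log2 scale, SE), and CAB1 and LHCB4.1 did not pass. Leaving out any library other than wild type replicate 0 ended the SBPASE call (adjusted p = 0.0535 to 0.0755 by edgeR). That call also ended in 3 of the 11 other settings with all libraries. The other 9 lie on the nearly empty strand, where wild type replicate 1 was the lowest library for each, and tell nothing of leaf tissue. The summed level of the 12 ran from 29140 to 30713 FPKM in cog1-2D and from 24431 to 31041 FPKM in wild type. CAB1 made up most of that sum, at 23254 to 24440 FPKM in cog1-2D and 19099 to 24540 FPKM in wild type.

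Nearly all nitrogen genes without a usable value lie on the minus strand, as the plot of fragments per gene shows. Of the 38, 21 lie on the plus strand and 19 of these were measured, while 17 lie on the minus strand and 1 of these was measured. The plus-strand genes left out were NRT2.4 and NRT2.5, high-affinity nitrate carriers known from nitrogen-starved plants, with 7 fragments each over the 6 libraries. The 16 unmeasured minus-strand genes held 0 to 43 fragments. They were the carriers NRT1.2, NRT1.5 and NRT1.8, which take nitrate in or move it between root and xylem, the high-affinity family members NRT2.2, NRT2.6 and NRT2.7, and the vacuolar nitrate exchanger CLC-A. They also included the ammonium carriers AMT1;2, AMT1;3 and AMT2;1, the minor nitrate reductase NIA1, the cytosolic glutamine synthetases GLN1;1 and GLN1;4, the asparagine synthetases ASN1 and ASN3, and the repressor LBD37. Nothing can be said here of how these genes differ between the genotypes. Nearest to the limit were NIA1 with 43 fragments, and NRT1.5 and CLC-A with 40 each, below it, and NRT2.3 with 113 and GLN1;2 with 217 above it. GLN1;2 is the measured minus-strand gene and had few fragments. Wild type replicate 1 held 8 fragments of it and 0 of NIA1, against 48 to 56 and 12 to 15 in the other wild type libraries.

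**Figure D1:**
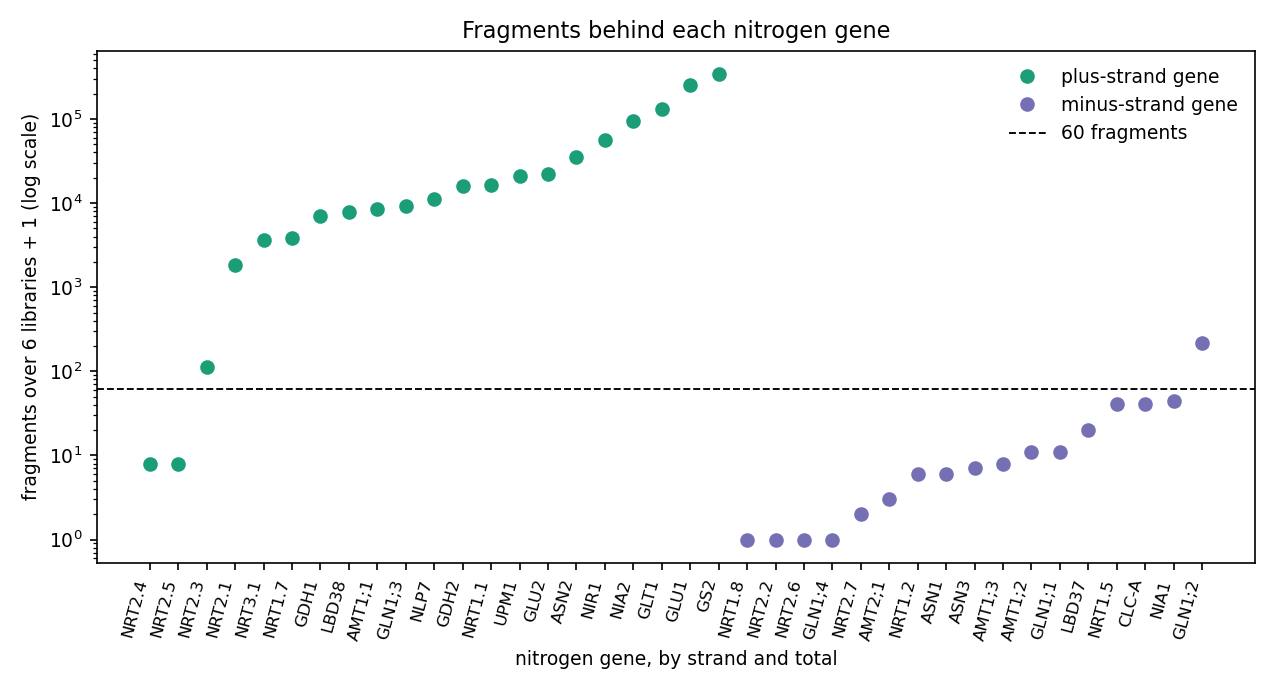
Fragments per nitrogen gene, summed over 6 libraries with 1 added, on a log axis, with genes grouped by strand and ordered by total. The dashed line marks 60 fragments; plus-strand genes other than NRT2.4 and NRT2.5 lie above it, and minus-strand genes other than GLN1;2 lie below it.

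In cog1-2D the nitrate carrier genes NRT1.1, NRT2.3 and NRT3.1, the nitrate reductase gene NIA2, GLN1;3 and GDH2 were lower, and GLT1, ASN2, NLP7 and LBD38 were higher. NIA2, the main nitrate reductase gene, fell to 0.556 of its wild type level and NRT1.1, the dual-affinity nitrate carrier and sensor, to 0.654. ASN2, an asparagine synthetase gene, rose to 1.45 times its wild type level, the repressor gene LBD38 to 1.33 times, the NADH-dependent glutamate synthase gene GLT1 to 1.22 times and NLP7 to 1.2 times. Of the 20 measured genes, 4 rose, 6 fell and 10 did not pass, with a threshold of 0.05 on p-values of edgeR (quasi-likelihood test) adjusted by Benjamini-Hochberg over 10347 genes. So 10 of 20 were called, where 36.3% of all tested genes were called, with 16.3% higher and 20% lower. Without wild type replicate 2, 4 rose and 2 fell. With limma on FPKM, 3 fell. The median log2 fold change of the 20 was -0.04, and that of all tested genes was 0.00.

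The libraries of the genotypes did not overlap in CPM (fragments scaled for library size) for 11 of the 20 genes, 5 with cog1-2D above and 6 with cog1-2D below. Among all tested genes the libraries did not overlap in 49.8%, with cog1-2D above in 24.3% and below in 25.5%. The 11 were the 10 called genes and GS2. In whole seedlings a lower value can mean fewer cells of a type or less RNA in each, and these cannot be told apart. Of the 10 root markers tested, 1 rose and 4 fell, as given above, and their part in the results was not tested.

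**Figure D2:**
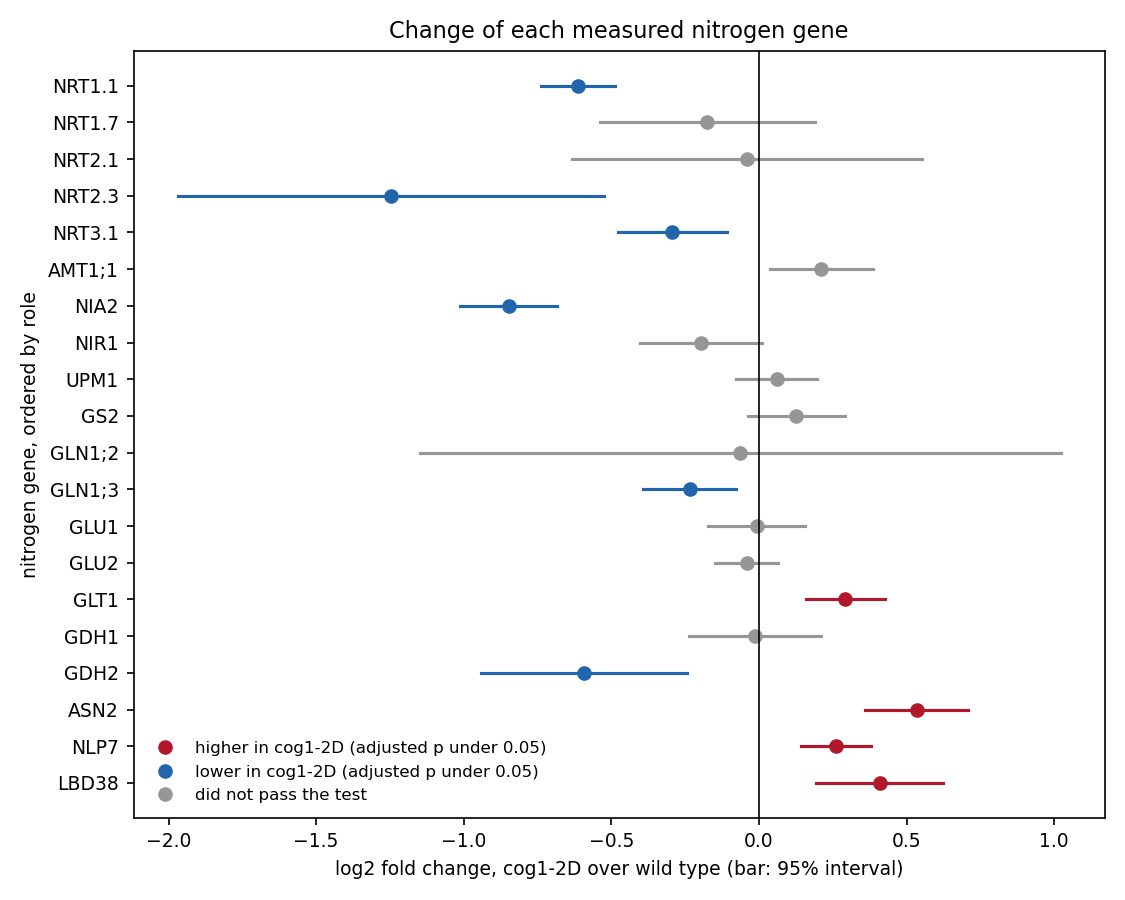
Change of each of the 20 measured genes in cog1-2D relative to wild type on the log2 scale, with its 95% interval as a bar (edgeR, 3 libraries per genotype). Blue points passed the test as lower, red points as higher and grey points did not pass; NRT2.3 and GLN1;2, which rest on the fewest fragments, have the widest bars.

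NIA2 (AT1G37130, chromosome 1, 14158452 to 14161938 in TAIR10.1) stood at 613, 640 and 603 FPKM in wild type replicates 0, 1 and 2. In cog1-2D replicates 0, 1 and 2 it stood at 382, 327 and 326 FPKM. Every mutant library was below every wild type library, and the gap between the groups was wider than the spread within either. The log2 fold change of NIA2 was -0.85 ± 0.07 (SE, n = 3 per genotype, adjusted p = 2.84e-05 in edgeR's test). Of the 10347 tested genes, 761 fell further. NRT1.1 (AT1G12110, chromosome 1, 4105223 to 4109601) stood at 141, 156 and 157 FPKM in wild type and at 98.4, 97.8 and 102 FPKM in cog1-2D. The mutant libraries lay close together and below all wild type libraries. For NRT1.1 the log2 fold change was -0.61 ± 0.06 (SE, adjusted p = 4.12e-05 in edgeR's test).

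The 250 bases before the annotated start of 3 genes are shown, read on the gene's strand from the TAIR10.1 genome, because these 3 changed most among the 5 called genes that kept their call under every other setting tried. They were picked after their values were seen. Capitals mark AAAG and its complement CTTT, the core that Dof factors such as COG1 are known to bind.
NIA2, chr1:14158202-14158451, plus strand: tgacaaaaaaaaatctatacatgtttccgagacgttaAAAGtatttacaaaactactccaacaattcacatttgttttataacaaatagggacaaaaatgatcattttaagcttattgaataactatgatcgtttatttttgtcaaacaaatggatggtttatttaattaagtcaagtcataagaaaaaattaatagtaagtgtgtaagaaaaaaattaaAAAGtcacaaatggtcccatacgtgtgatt
NRT1.1, chr1:4104973-4105222, plus strand: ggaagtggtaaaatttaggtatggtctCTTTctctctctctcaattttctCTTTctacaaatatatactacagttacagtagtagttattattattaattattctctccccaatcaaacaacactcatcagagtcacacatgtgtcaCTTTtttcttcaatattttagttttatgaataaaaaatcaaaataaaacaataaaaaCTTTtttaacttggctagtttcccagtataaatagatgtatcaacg
ASN2, chr5:25968785-25969034, plus strand: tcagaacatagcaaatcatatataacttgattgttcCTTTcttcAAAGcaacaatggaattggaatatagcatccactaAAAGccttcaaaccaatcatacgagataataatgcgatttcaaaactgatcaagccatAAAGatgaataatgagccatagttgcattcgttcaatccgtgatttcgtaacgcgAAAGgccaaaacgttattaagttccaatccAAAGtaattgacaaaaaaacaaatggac
These windows held 2 matches for NIA2, 4 for NRT1.1 and 6 for ASN2, counting both strands. Of 27443 protein-coding genes, 98.0% had at least 1 match in a window of this length, with a median of 4. All 20 measured nitrogen genes had at least 1, from 1 in NIR1 and NLP7 to 7 in AMT1;1 and GS2, also with a median of 4. A match describes the letters in the window and does not show that a factor binds there.

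Of the other 4 measured genes of nitrate transport, 2 fell and 2 did not pass. NRT3.1 (also WR3), the partner protein that NRT2.1 needs to work, stood at 60.5, 70.7 and 71.8 FPKM in wild type and at 56.0, 58.5 and 51.6 FPKM in cog1-2D. The groups did not overlap, although the lowest wild type library lay close to the highest mutant library. NRT3.1 had a log2 fold change of -0.29 ± 0.08 (SE, adjusted p = 0.0210 in edgeR's test). Leaving out cog1-2D replicate 2 ended the call (edgeR's test, adjusted p = 0.0742), as did leaving out wild type replicate 1 (0.0649) or 2 (0.0720), and the 3 limma fits did not call it (adjusted p = 0.0622, 0.0730 and 0.0908). NRT2.3, a further NRT2 family member, was the weakest plus-strand gene measured, at 1.28, 1.26 and 1.66 FPKM in wild type and 0.803, 0.602 and 0.363 FPKM in cog1-2D. Its libraries held 23 to 31 fragments in wild type and 7 to 15 in cog1-2D. Its log2 fold change of -1.25 ± 0.32 (SE, adjusted p = 0.0144 in edgeR's test) had a 95% interval from -1.97 to -0.53. On the log2(FPKM + 1) scale in limma, which understates the change of low genes, it was -0.60. Leaving out cog1-2D replicate 1 (adjusted p = 0.0540 by edgeR) or 2 (0.0529), or wild type replicate 2 (0.0532), ended the call.

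NRT2.1, the main high-affinity nitrate carrier of roots, did not pass. It stood at 13.8, 17.8 and 12.4 FPKM in wild type and at 16.7, 18.2 and 8.04 FPKM in cog1-2D. The mutant group held both the highest and the lowest library, so the groups overlapped fully. The interval of its log2 fold change ran from -0.63 to 0.55. Of the 50-base windows in its exons, 8.86% occur again in the genome, so some of its reads may also match a copy. None of its counts was fractional. Its neighbour NRT2.2 held 0 fragments in all libraries. NRT2.2 lies on the nearly empty minus strand, so its expression cannot be read. NRT1.7, which loads nitrate into the phloem of older leaves, also overlapped between genotypes, at 22.7 to 32.9 FPKM in wild type and 21.9 to 30.5 FPKM in cog1-2D. Its interval ran from -0.54 to 0.19.

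The ammonium carrier AMT1;1 did not pass. It stood at 62.4, 68.0 and 59.8 FPKM in wild type and at 72.2, 81.5 and 67.5 FPKM in cog1-2D. The groups overlapped, since the lowest mutant library lay below the highest wild type library. Its log2 fold change was 0.21 ± 0.08 (SE, adjusted p = 0.0597 in edgeR's test). It passed as higher with upper-quartile scaling, without the filter on low counts and with replicate number as a block (edgeR's test, adjusted p = 0.0422, 0.0448 and 0.00949). Leaving out cog1-2D replicate 2 (adjusted p = 0.0307 by edgeR) or wild type replicate 1 (0.0469) had the same effect. A non-coding gene on the opposite strand, AT4G13505, overlaps AMT1;1 and held 0 fragments. It lies on the nearly empty minus strand, so its expression cannot be read.

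**Figure D3:**
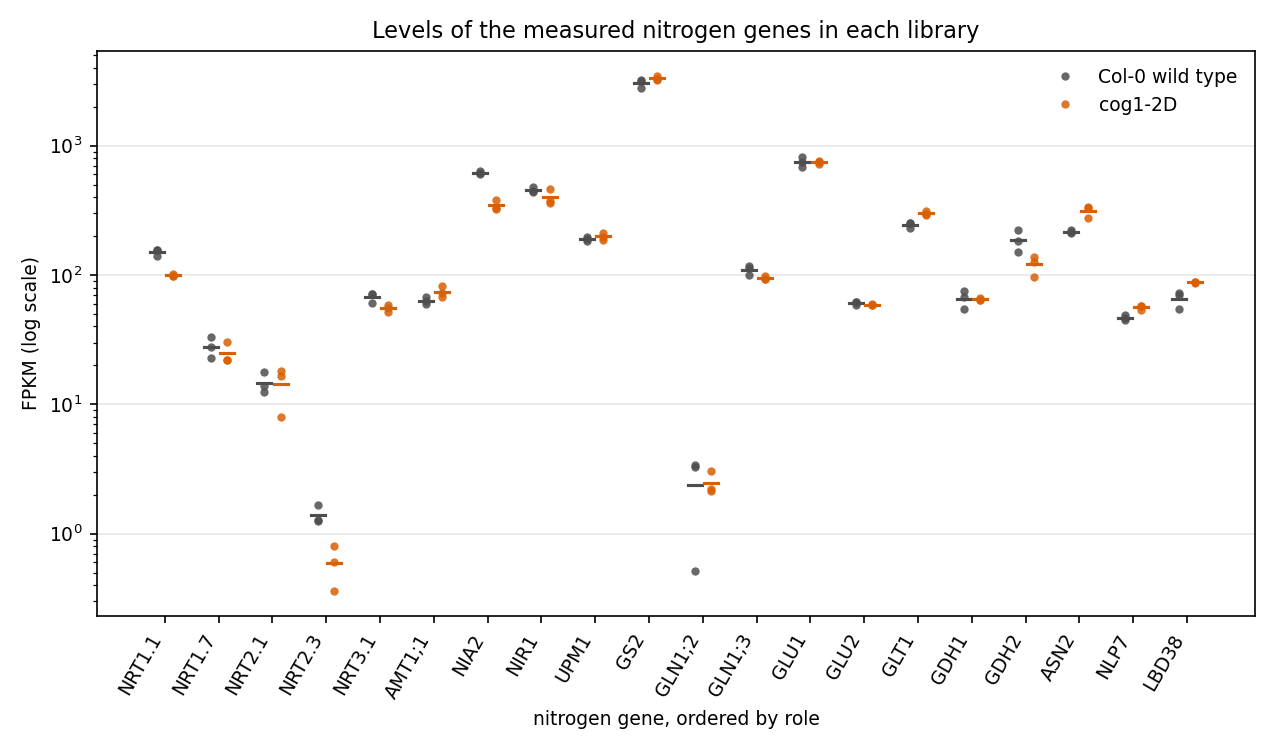
Level of each measured nitrogen gene in FPKM on a log axis, with 1 point per library (grey for wild type, orange for cog1-2D) and a line at the mean of 3 libraries. GS2 is the most abundant in both genotypes and NRT2.3 and GLN1;2, the latter on the nearly empty strand, have the lowest values; NIA2, NRT1.1 and ASN2 show clear gaps between the genotypes.

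Of the genes for the step after nitrate reductase, neither of the 2 measured passed. NIR1, the plastid nitrite reductase, stood at 448, 480 and 438 FPKM in wild type and at 461, 375 and 362 FPKM in cog1-2D. Replicate 0 of the mutant lay within the wild type range and the other mutant libraries lay below it. NIR1 had a log2 fold change of -0.20 ± 0.09 (SE, adjusted p = 0.125 in edgeR's test). It was called lower once cog1-2D replicate 0 was left out (-0.31, edgeR's test, adjusted p = 0.00948) and with no filter on low counts (adjusted p = 0.0271). UPM1, which makes the precursor of sirohaem, the cofactor of nitrite reductase, stood at 183 to 197 FPKM in wild type and 188 to 212 FPKM in cog1-2D. Its interval ran from -0.08 to 0.20.

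Measured per length, NIA2 was 1.37, 1.33 and 1.38 times as abundant as NIR1 in the wild type libraries and 0.828, 0.873 and 0.900 times in the mutant libraries. The order of these genes for consecutive steps was thus the other way round in every mutant library. The 95% interval of NIA2 ran from -1.01 to -0.68 and that of NIR1 from -0.40 to 0.01. The difference between the 2 changes was not tested.

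GS2, the plastid glutamine synthetase that refixes photorespiratory ammonium, ranked 19 of all genes by mean FPKM, a rank set almost only against plus-strand genes. Its share of the family cannot be read, since GLN1;1, GLN1;2 and GLN1;4 lie on the minus strand. GS2 stood at 2783, 3199 and 3163 FPKM in wild type and at 3230, 3433 and 3286 FPKM in cog1-2D. The groups were separated by a narrow gap, smaller than the spread within wild type. GS2 had a log2 fold change of 0.13 ± 0.07 (SE, adjusted p = 0.203 in edgeR's test). GLN1;3, a cytosolic isoform, stood at 117, 99.8 and 113 FPKM in wild type and at 92.6, 92.6 and 97.4 FPKM in cog1-2D. It fell by 0.23 ± 0.07 on the log2 scale (SE, adjusted p = 0.0285 in edgeR's test). Leaving out cog1-2D replicate 0 (adjusted p = 0.0795 by edgeR) or 1 (0.102), or wild type replicate 0 (0.0702) or 2 (0.0762), ended the call, and the 3 limma fits did not make it (adjusted p = 0.0801, 0.0886 and 0.108). GS2 was 23.7 to 32.1 times as abundant as GLN1;3 per length in wild type and 33.7 to 37.1 times in cog1-2D. GLN1;2, also cytosolic, could not be resolved, with a log2 fold change of -0.06 and an interval from -1.15 to 1.02.

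Of the glutamate synthases, 1 of 3 passed. GLU1, the ferredoxin-dependent enzyme of green tissue, stood at 680, 819 and 746 FPKM in wild type and at 744, 756 and 727 FPKM in cog1-2D. The mutant libraries lay inside the wild type range, and the interval of the log2 fold change ran from -0.17 to 0.16. The deposited table marks the GLU1 value of wild type replicate 1 as failed; without that library the log2 fold change was 0.06 (edgeR's test, adjusted p = 0.558). GLU2, the other ferredoxin-dependent gene, stood at 58.6 to 62.0 FPKM in wild type and 58.7 to 59.8 FPKM in cog1-2D, with an interval from -0.15 to 0.06.

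GLT1, the NADH-dependent enzyme known from roots and vascular tissue, rose. It stood at 230, 252 and 251 FPKM in wild type and at 315, 295 and 293 FPKM in cog1-2D, with no overlap. GLT1 had a log2 fold change of 0.29 ± 0.06 (SE, adjusted p = 0.00474 in edgeR's test). GLT1 made up 23.2 ± 0.9% of the summed glutamate synthase FPKM in wild type and 27.3 ± 0.8% in cog1-2D (SD, n = 3), while GLU1 made up 71.0 ± 1.1% and 67.3 ± 0.8%. A neighbouring gene, AT5G53470, overlaps the GLT1 locus by 127 bases on the same strand and held 1761 fragments, against 130656 for GLT1.

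Of the glutamate dehydrogenases, which mainly break glutamate down, GDH2 fell and GDH1 did not pass. GDH2 stood at 151, 183 and 224 FPKM in wild type and at 97.3, 127 and 139 FPKM in cog1-2D. The groups did not overlap, and the SD was 36.5 FPKM in wild type and 21.6 FPKM in cog1-2D. For GDH2 the log2 fold change was -0.59 ± 0.15 (SE, adjusted p = 0.0160 in edgeR's test). Leaving out wild type replicate 2 ended the call (edgeR's test, -0.43, adjusted p = 0.0503), as did a fit robust to outlying genes (0.0529) and the 3 limma fits (0.0574, 0.0731 and 0.0976). GDH1 stood at 54.5, 67.2 and 75 FPKM in wild type and at 64.0, 66.9 and 64.6 FPKM in cog1-2D, with an interval from -0.24 to 0.21. GDH2 made up 73.8 ± 0.9% of the summed FPKM of both genes in wild type and 64.7 ± 4.1% in cog1-2D (SD, n = 3).

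ASN2 (AT5G65010, chromosome 5, 25969035 to 25972575) had the largest rise. It stood at 216, 210 and 221 FPKM in wild type and at 335, 329 and 278 FPKM in cog1-2D. Every mutant library lay above the narrow wild type range, with replicate 2 the lowest of the 3. ASN2 had a log2 fold change of 0.53 ± 0.08 (SE, adjusted p = 0.000680 in edgeR's test), and 797 of the 10347 tested genes rose further. ASN1, known as the dark-induced isoform, held 5 fragments in all and could not be set beside it.

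**Figure D4:**
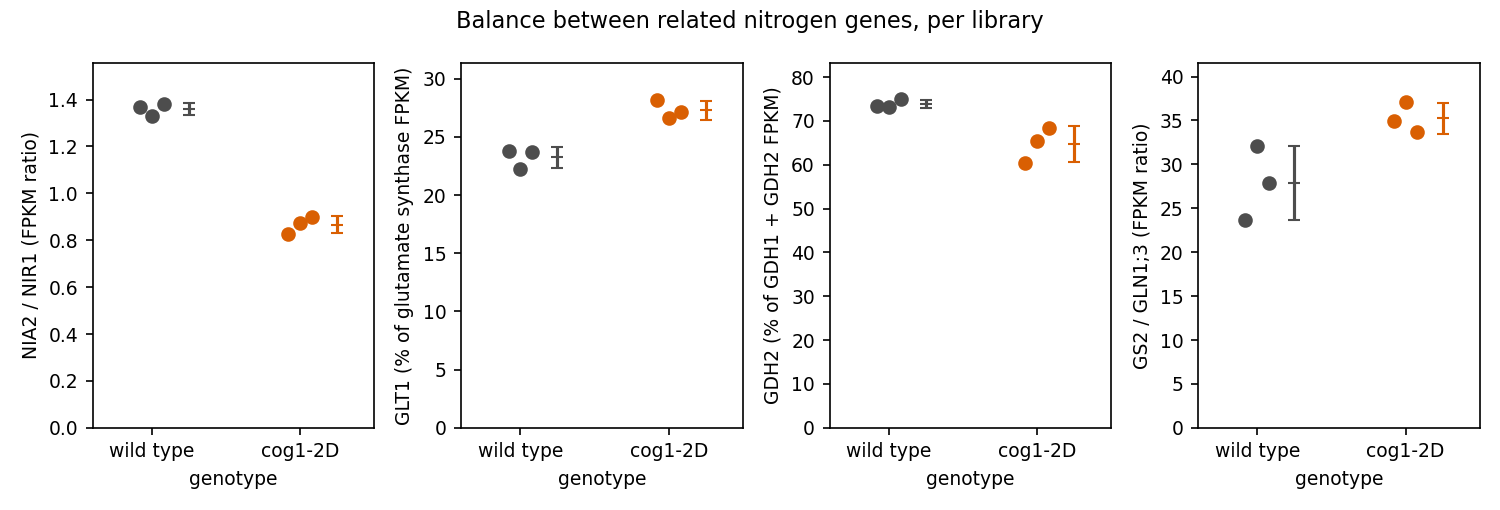
Balance between related nitrogen genes in each library, from FPKM, with axes that start at 0, points for libraries and bars for mean ± SD over 3 libraries. NIA2 over NIR1 and the GDH2 share are lower in cog1-2D, and the GLT1 share and GS2 over GLN1;3 are higher, without overlap between the genotypes.

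Both measured regulators rose. NLP7, the factor that starts the primary nitrate response, stood at 45.0, 48.9 and 46.6 FPKM in wild type and at 53.7, 57.2 and 58.0 FPKM in cog1-2D, without overlap. NLP7 had a log2 fold change of 0.26 ± 0.05 (SE, adjusted p = 0.00457 in edgeR's test). LBD38, a nitrate-induced repressor of genes for nitrate uptake and reduction, stood at 69.5, 72.9 and 54.6 FPKM in wild type and at 88.2, 88.4 and 86.4 FPKM in cog1-2D. Its mutant libraries were nearly equal, and the wild type spread came from replicate 2. LBD38 had a log2 fold change of 0.41 ± 0.09 (SE, adjusted p = 0.00889 in edgeR's test), and without wild type replicate 2 it was 0.30 (edgeR's test, adjusted p = 0.00550).

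The authors' deposited table of called genes, made with Cuffdiff, lists 8 of the 38, with 3 higher and 5 lower in cog1-2D. It lists 3124 genes in all, 15.5% of the 20207 genes with a fragment, while the 38 also hold genes without any fragment. All 8 were also called by edgeR in the same direction. GLN1;3 and GLT1 were called by edgeR and are not listed in the authors' deposited table. For NIA2 the authors' deposited table gives a log2 fold change of -0.84 and for ASN2 one of 0.54.

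Other genes of nitrogen metabolism, 70 in 5 lists, were set beside the members, and 37 of them were tested. The untested genes lie on the nearly empty minus strand, except NRT1.6 and AMT1;4 on the plus strand and AT4G24720, which had no deposited value. For the minus-strand genes, the lack of a test tells nothing of their expression. Of the 37, 11 rose, 5 fell and 21 did not pass, so 43.2% were called, against 36.3% of all tested genes. Their median log2 fold change was 0.06. Leaving out any library other than wild type replicate 1 left 6 or 7 higher. Leaving out cog1-2D replicate 1 left 2 lower, and leaving out wild type replicate 2 gave 8 lower.

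Among 13 further nitrate carriers and channels, 5 were tested, 3 rose and none fell, while 2 did not pass. AT1G52190 (NRT1.11), which moves nitrate from xylem to phloem in leaves, rose by 0.58 ± 0.13 on the log2 scale (SE), from 34.1 ± 6.7 to 51.1 ± 3.9 FPKM (SD, n = 3). NAXT1, which releases nitrate from root cells, rose by 0.41 ± 0.14, from 13.4 ± 3.0 to 17.9 ± 1.1 FPKM. The NAXT1 call ended in the 3 limma fits and without any library other than wild type replicate 1 (adjusted p = 0.0789 to 0.119 by edgeR). AT3G45680, with no name in the reference, rose by 1.14 ± 0.28, from 4.47 ± 2.27 to 9.99 ± 1.36 FPKM. In limma with no filter, neither AT1G52190 (adjusted p = 0.0584) nor AT3G45680 (0.0608) was called.

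Of 7 other ammonium, glutamine, glutamate and urea genes, 5 were tested and URE, the urease gene, rose (0.30 ± 0.07), from 13.7 ± 1.1 to 16.9 ± 0.7 FPKM, while 4 did not pass. Of 12 aminotransferase, asparaginase and dicarboxylate carrier genes, 6 were tested, 1 rose, 2 fell and 3 did not pass. ASP2, a cytosolic aspartate aminotransferase that makes the precursor of asparagine, fell by 0.40 ± 0.10, from 131 ± 15 to 99.6 ± 9.1 FPKM, and was not called by limma with a pseudocount of 0.1 (adjusted p = 0.0557) or with no filter (0.0703). The alanine aminotransferase genes were called at -0.18 ± 0.06 for AlaAT1 and 0.26 ± 0.09 for ALAAT2. ALAAT2 lost its call in all 6 fits without 1 library (adjusted p = 0.0626 to 0.137 by edgeR). It also lost it in 4 of the 11 other settings with all libraries, among them DESeq2 (adjusted p = 0.223). AlaAT1 lost its call when replicate 0 or 1 of cog1-2D, or 2 of wild type, was left out (adjusted p = 0.106, 0.127 and 0.110 in edgeR), with upper-quartile scaling (0.0526 in edgeR) and in the 3 limma fits.

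Of 14 genes for cofactors and reductant, 6 were tested, 2 rose, 1 fell and 3 did not pass. CNX3, which acts in the synthesis of the molybdenum cofactor of nitrate reductase, rose by 0.22 ± 0.07, from 22.1 ± 1.3 to 25.7 ± 0.9 FPKM. The CNX3 call ended with DESeq2 (adjusted p = 0.184), with no filter (0.104 by edgeR), in the 3 limma fits and without any library other than wild type replicate 0 (0.0545 to 0.136 by edgeR). Of the plastid glucose-6-phosphate dehydrogenase genes, which supply reductant, G6PD3 stood at 0.36 ± 0.07 and G6PD2 at -0.19 ± 0.05. G6PD2 was not called with DESeq2 (adjusted p = 0.0614) or without cog1-2D replicate 1 (0.0718 by edgeR).

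Of 24 nitrate regulators, 15 were tested, 4 rose, 2 fell and 9 did not pass. CIPK23, the kinase that phosphorylates NRT1.1, rose by 0.37 ± 0.07, from 54.4 ± 5.0 to 70.6 ± 2.5 FPKM. TGA1, a transcription factor that acts on NRT2.1 and NRT2.2, rose by 0.31 ± 0.09, from 112 ± 14 to 140 ± 7 FPKM. The TGA1 call ended in the 3 limma fits and when replicate 0 or 1 of cog1-2D, or 0 or 2 of wild type, was left out (adjusted p = 0.0586 to 0.0975 by edgeR). AT3G25790, with no name in the reference, rose by 0.43 ± 0.13, from 5.56 ± 0.26 to 7.57 ± 0.99 FPKM. Its call ended with DESeq2 (adjusted p = 0.142) and without any library other than cog1-2D replicate 1 (0.0570 to 0.104 by edgeR). The 2 that fell were CIPK8, a kinase of the nitrate response, and CBL1, a calcium sensor that partners CIPK23, at -0.29 ± 0.06 and -0.28 ± 0.09. The remaining regulator that rose was AT1G64530 (NLP6), by 0.27 ± 0.06 (SE, adjusted p = 0.00823 in edgeR's test). It went from 23.5 ± 1.6 to 28.4 ± 0.9 FPKM and was not followed under the other settings. CIPK8, CBL1 and NLP6 were named after their values were seen. CBL1 was not called with DESeq2 (adjusted p = 0.198), in limma with no filter (0.0523), or when replicate 1 or 2 of cog1-2D, or 0 or 1 of wild type, was left out (0.0820 to 0.125 by edgeR). CIPK8 was not called by limma with a pseudocount of 0.1 (adjusted p = 0.0543) or with no filter (0.0630).

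**Figure D5:**
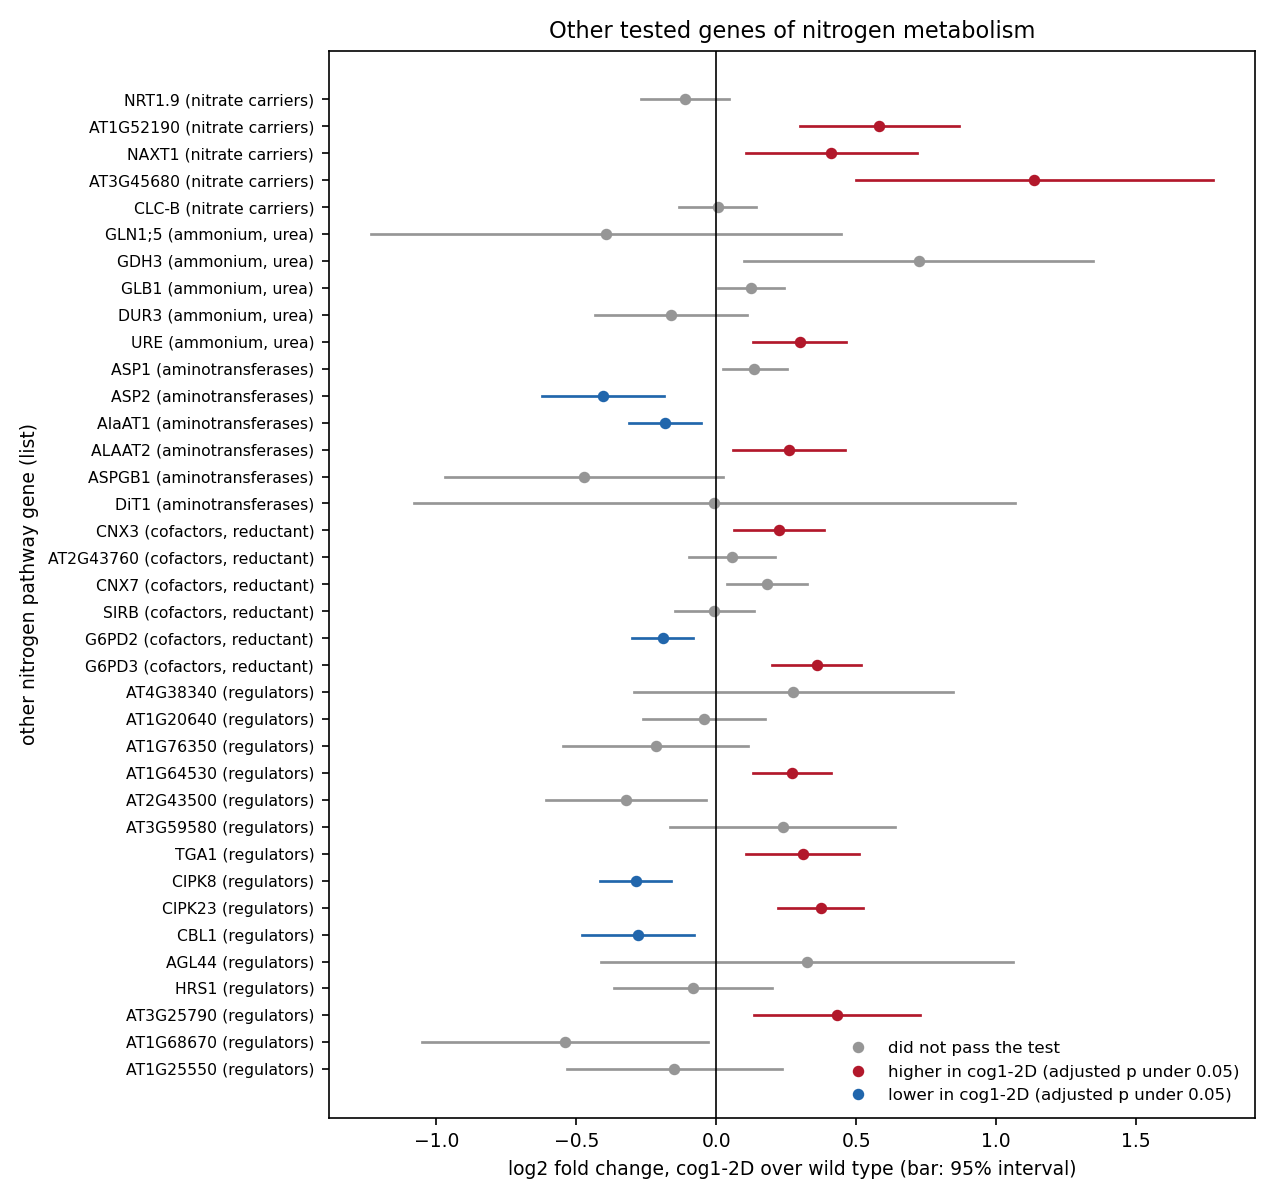
Change in cog1-2D relative to wild type, on the log2 scale, for the 37 tested genes of the 5 other nitrogen lists, with 95% intervals (edgeR, 3 libraries per genotype), coloured by call. The points lie on both sides of 0, with 11 called higher and 5 lower.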

How the data were processed

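Per the labels' protocols, a strand-specific kit for mRNA turned total RNA into libraries. The submitters' processing notes name Trimmomatic 0.36, HISAT2 2.1.0, Cufflinks 2.2.1, Cuffdiff and the build TAIR10, without role or strand setting. The deposited table holds expected counts of fragments per gene, unscaled, and FPKM scaled per gene length and library, per the file headers. The authors' deposited table of called genes gives log2 fold changes and q-values from Cuffdiff. All 38 loci matched the TAIR10.1 reference, which gave strand and position, and none of their counts was fractional.

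Counts were rounded and tested with edgeR 4.0.16 in R 4.3.3 (filterByExpr, TMM factors, quasi-likelihood F-test, genotype as the model term, Benjamini-Hochberg adjustment over 10347 genes). SE is the log2 fold change over the square root of F, and intervals use the fit's degrees of freedom. The steps were tested on simulated data. Other settings were scaling by RLE or by upper quartile, the DESeq2 1.42.0 test, dropping the filter or requiring 50 counts on average, a robust fit, limma 3.58.1 on log2 FPKM with pseudocounts of 1 and 0.1, plus-strand genes alone, a replicate block and each library left out. Cuffdiff could not be rerun from tables.

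The members, lists and tests were chosen with earlier results of these data known. All measured members are named, and from each list up to 3 called genes with the largest change, or, with no call, the 2 of lowest p. Among the nitrate regulators all called genes are named. Tables and plots used Python 3.11.15, pandas 2.3.3 and matplotlib 3.10.9. No per-sample column was left unused for want of a match. Of the promoter windows searched, the sequences of 3 are shown.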

Additional observations from a re-analysis of the deposited data

How the results depend on the processing

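Of the 10 called nitrogen genes, 5 (NIA2, NRT1.1, GLT1, ASN2 and NLP7) kept their call under all 17 alternatives, and none of the 10 changed direction. With limma on log2 FPKM, 3 genes were lower in place of 6, with either pseudocount and without a filter. Without one library the number lower ran from 2 (without wild type replicate 2) to 6, and the number higher from 4 to 5. LBD38 lost its call in limma without a filter (adjusted p = 0.0603 in limma). Uncalled genes near 0 changed sign. GLN1;2 was 0.18, 0.40 and 0.18 in limma with a pseudocount of 1, of 0.1 and without a filter. GLU1 was 0.012 and GDH1 0.006 with upper-quartile factors, and GDH1 was 0.003 in each limma fit. Without one library, NRT2.1 ran from -0.25 to 0.25, GLN1;2 from -0.52 to 0.30, GLU1 from -0.074 to 0.06 and GDH1 from -0.13 to 0.10. Among the other lists 5 were higher in limma without a filter, and 3 were lower with DESeq2, 2 with a pseudocount of 0.1 and 1 without a filter. Without one library 6 to 8 were higher and 2 to 8 lower. The cause was not tested. Over all genes 1129 to 1488 were higher and 1554 to 1890 lower without one library. With a replicate block, 8 of the other lists were lower, GLN1;2 was 0.048 and AMT1;1 passed, while the called nitrogen genes stayed called. The labels state no pairing of same-numbered libraries. The correlations of their deviations were -0.01, -0.02 and 0.11, and those of differently numbered libraries ran from -0.20 to 0.16. With 3 libraries per genotype, these values cannot show whether same-numbered libraries shared a batch. NRT2.3 and GLN1;2 had no value when a mean of 50 counts was required. NRT2.3, with 113 fragments, was -0.60 in place of -1.25 in limma with a pseudocount of 1, with and without a filter.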
